A study of Mus musculus with 120 samples.

Results

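The B6-Chr17MSM strain is a consomic mouse strain, a B6 mouse (C57BL/6J) whose chromosome 17 was replaced by that of the strain MSM. Its members were the 4 arrays whose strain label reads B6-Chr17MSM, from 2 males with 2 arrays each, out of 120 arrays from 60 males of 30 strains. They were compared with the 4 arrays of 2 B6 males, and, as a second reference, with the mean of 27 further strains (54 males, 108 arrays), each of which carries another MSM chromosome, part of one, or the MSM mitochondrial genome, but no MSM chromosome 17. The 2 MSM males served for values side by side. All groups were males of 10 weeks of age, sampled after 4 h of fasting, and total RNA of the whole liver was hybridised to a 3' expression array (Affymetrix Mouse Genome 430 2.0). The series design names 2 different males a strain, and the animal number in the labels was taken as the male. P-values therefore measure the spread between males of a strain, and the labels do not say whether the 2 males were littermates.

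The inbred strain MSM descends from wild mice caught in Japan, and its genome differs from that of B6 at very many positions. In a consomic strain, a gene on the substituted chromosome can differ through its own (cis) sequence, and a gene elsewhere through factors encoded on that chromosome. Mouse chromosome 17 carries the major histocompatibility complex (MHC, named H2 in mice), a cluster of class I and class II antigen-presenting genes, their peptide transporters and proteasome subunits, and several complement genes; class I molecules show peptides from inside the cell and class II molecules show peptides taken up from outside. The chromosome also carries liver enzymes of purine, tryptophan and lipid metabolism.

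The deposited values are log2 signals whose spread over arrays is very small and appears compressed, to an extent unlike between probe sets. A difference is therefore not a log2 fold change. Sizes are given in log2 units of the deposited scale and in residual SD units, that is, the difference divided by the SD between males of a strain for that gene. A gene was called at a Benjamini-Hochberg adjusted p below 0.05 in a limma fit over all 30 strains. Of 12 hepatocyte markers, 9 were tested and had mean signals from 11.47 to 14.80; signals of different probe sets are not on one scale, so this is no measure of the tissue's makeup. The 2 arrays of the first B6-Chr17MSM male correlated with r = 0.034 across standardised genes and those of the second with r = 0.294, against 0.228 and 0.590 for the B6 males; the highest r between arrays of different B6-Chr17MSM males was 0.654, for the arrays numbered 2. Over the series the 2 arrays of a male had a median r of 0.370 (60 pairs). For arrays of different strains the median was -0.014 where both or neither were numbered 1, and -0.032 where only 1 of them was. The highest r between the B6 males was 0.476. In the B6-Chr17MSM strain the 2 arrays of a male thus correlated less than its pair of arrays numbered 2, and counts are also given for each array number alone.

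Against B6, 26 genes were called, and all 26 lay on chromosome 17. They were 4.41% of the 590 tested genes of that chromosome, against 0.218% of all 11949 tested genes. Of the 26 genes, 5 were higher in the B6-Chr17MSM males (0.0418% of all tested genes) and 21 were lower (0.176%). Among the 11359 tested genes elsewhere limma called 0 against B6, and the other fits called from 0 to 15 there, apart from 1062 after quantile normalization. At an unadjusted p below 0.05 in limma there were 561 elsewhere (305 higher, 256 lower). Over all 11949 tested genes there were 676, and among the 590 of chromosome 17 there were 115. Where no gene differs, a share of about 0.05 passes that threshold, so the 561 are not read as differences here.

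Against the 27 other strains, 59 genes of chromosome 17 were called (10% of those tested; 16 higher, 43 lower), and 18 elsewhere (0.158%; 10 higher, 8 lower). Over all tested genes the same comparison called 77 (0.644%), with 0.218% higher and 0.427% lower. Every one of the 26 genes called against B6 was also called against the other strains with the same sign (0.218% of all tested genes). In 53 genes of chromosome 17 (8.98%) both B6-Chr17MSM males lay beyond all 54 males of the other strains and both B6 males, against 0.569% of all tested genes and 15 genes elsewhere (0.132%). This count does not depend on the scale of a probe set.

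**Figure D1:**
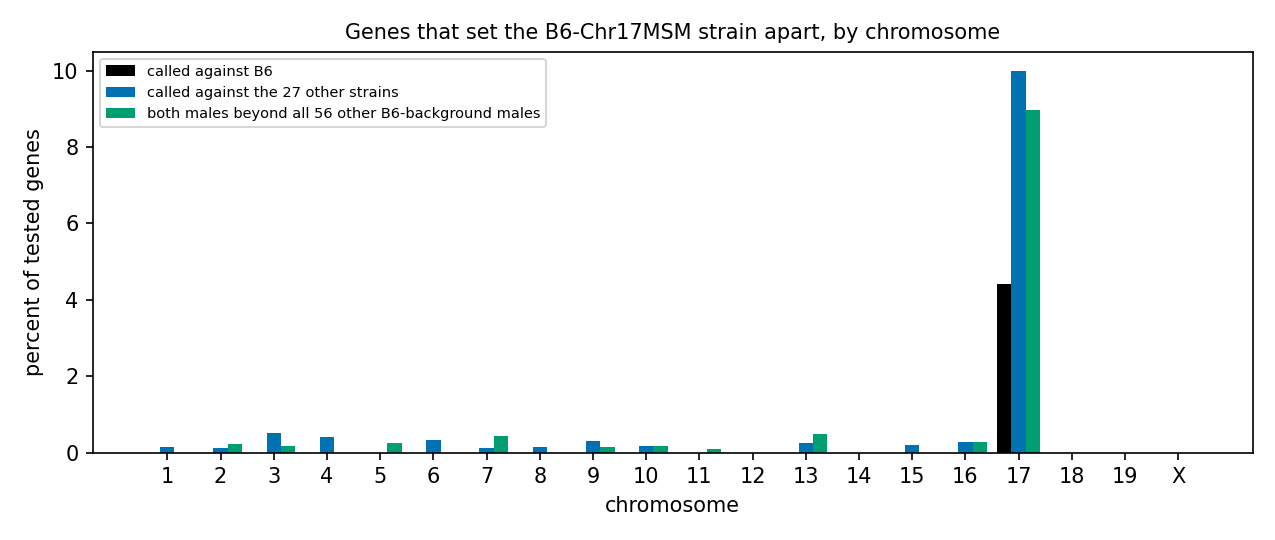
Percent of tested genes per chromosome (y axis) that were called against B6 (black), called against the 27 other strains (blue), or in which both B6-Chr17MSM males lay beyond all 56 males of B6 and the other strains (green). Chromosome 17 stands at 4.41%, 10% and 8.98%, and no other chromosome exceeds 0.524% in any of the 3 counts.

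The counts against B6 rested on 2 males a side. Without the first B6-Chr17MSM male, 5 genes of chromosome 17 were higher, 15 lower and 6 elsewhere were called; without the second, 1, 10 and 2. Without the first B6 male the counts were 3, 11 and 0, and without the second 2, 10 and 1. Against the other strains, chromosome 17 had 8 higher and 19 lower calls without the first B6-Chr17MSM male and 4 and 22 without the second. With array 1 of each male alone, 0 genes of chromosome 17 were higher and 7 lower than in B6; with the other array, 9 and 18, and 14 elsewhere. Of the 26 called genes, 11 kept their call with any 1 of the 4 males left out: Antkmt, Man2a1, Xdh, Haao, Fez2, Crim1, Gfer, Decr2, Rhot2, Zfp955a and Yju2.

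The split of higher and lower calls depended on the scaling. Median centring gave 8 higher and 15 lower genes of chromosome 17 against B6, and quantile normalization gave 73 higher and 13 lower, with 1062 calls elsewhere. The median of all genes against B6 stood at 0.02 residual SD units as deposited, 0.93 after median centring and 1.47 after quantile normalization, a shift of 0.000328 log2 units in the last case. Changes of the small-scale probe sets below about that size were therefore not separated here from a shift of the whole array. That size is the shift of the median gene and no bound for a single gene. Gfer, for example, went from -0.000992 as deposited to 0.000774 after quantile normalization. Of the 26 genes, 22 kept their sign after quantile normalization; H2-Q10 went to 0, and Gfer, Rhbdl1 and Klc4 turned to higher.

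**Figure D2:**
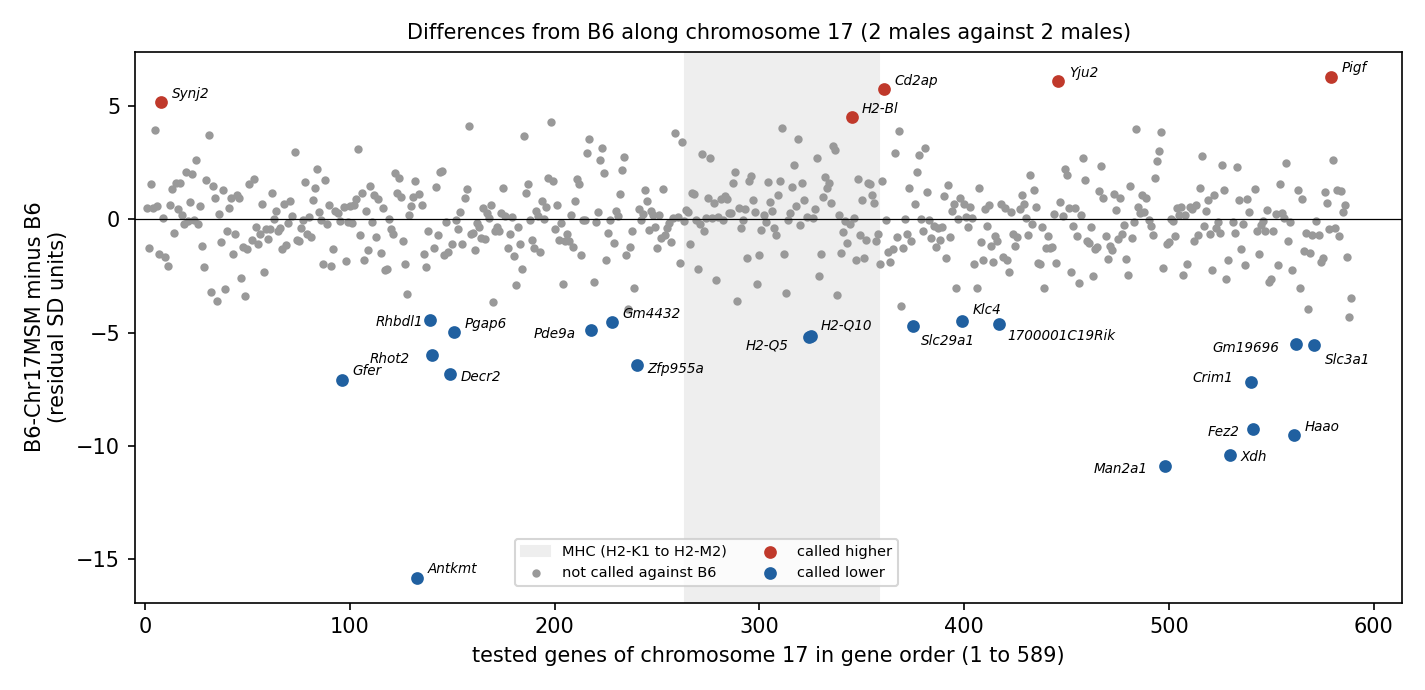
Difference between the B6-Chr17MSM and B6 means in residual SD units (y axis) for 589 tested genes in their order along chromosome 17 (x axis), 2 males a side; red and blue points were called higher and lower, and the grey band marks the MHC. Called genes lie along the whole chromosome, from Synj2 near its start to Pigf near its end, and Antkmt is lowest at -15.8 SD units.

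Called genes were found in 11 of the 12 stretches of 50 tested genes along the chromosome (the last stretch had 39), with 1 to 4 in each of the 11 and 0 in the stretch from Rps28 to C2. Some called genes were neighbours in the order of tested genes. Antkmt lay 6 tested genes before Rhbdl1, which was directly followed by Rhot2; Decr2 came 9 genes after Rhot2 and Pgap6 2 after Decr2. All 5 were lower as deposited. Crim1 was directly followed by Fez2, Haao by Gm19696, and H2-Q5 by H2-Q10, and all 6 were lower. Gene order is that of the GRCm38.p6 reference, and positions of the probes were not used here.

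To show the reference sequence in front of genes that were lower together, the promoter windows (250 bases before to 50 after the RefSeq start, GRCm38.p6, 5′ to 3′ on the gene's strand) of 2 genes of the first group and of the adjacent pair Crim1 and Fez2 are printed. Capitals mark the GC box, GGGCGG on either strand. The windows lie at chr17:25792738-25793037 (minus strand) for Antkmt, the first of the starts listed for it, chr17:26090115-26090414 (minus strand) for Decr2, chr17:78199998-78200297 (plus strand) for Crim1 and chr17:78418103-78418402 (minus strand) for Fez2.
Antkmt: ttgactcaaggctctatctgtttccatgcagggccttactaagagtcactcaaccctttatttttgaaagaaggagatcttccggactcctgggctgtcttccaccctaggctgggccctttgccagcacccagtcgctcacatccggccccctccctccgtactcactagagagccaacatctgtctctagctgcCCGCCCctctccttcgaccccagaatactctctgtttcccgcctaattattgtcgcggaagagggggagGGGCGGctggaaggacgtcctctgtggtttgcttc
Decr2: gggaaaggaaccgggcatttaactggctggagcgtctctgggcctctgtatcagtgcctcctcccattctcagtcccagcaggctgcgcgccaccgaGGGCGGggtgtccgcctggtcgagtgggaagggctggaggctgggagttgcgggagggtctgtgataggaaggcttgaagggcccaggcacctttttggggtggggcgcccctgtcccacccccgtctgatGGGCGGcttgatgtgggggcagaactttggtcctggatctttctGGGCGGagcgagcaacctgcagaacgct
Crim1: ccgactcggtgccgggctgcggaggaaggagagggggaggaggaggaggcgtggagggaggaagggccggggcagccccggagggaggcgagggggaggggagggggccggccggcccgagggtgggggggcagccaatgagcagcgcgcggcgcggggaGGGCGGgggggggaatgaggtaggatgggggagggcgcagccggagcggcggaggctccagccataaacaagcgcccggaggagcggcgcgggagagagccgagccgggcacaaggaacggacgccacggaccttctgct
Fez2: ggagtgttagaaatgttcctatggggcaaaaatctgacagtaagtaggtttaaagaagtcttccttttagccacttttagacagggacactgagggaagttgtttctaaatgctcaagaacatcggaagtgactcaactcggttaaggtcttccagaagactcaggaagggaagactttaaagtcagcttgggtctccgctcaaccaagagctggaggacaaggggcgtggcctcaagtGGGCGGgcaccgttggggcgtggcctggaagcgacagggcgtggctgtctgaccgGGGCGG
Antkmt and Fez2 each held 2 GC boxes, Decr2 3 and Crim1 1. The table held a promoter for 20 of the 26 called genes: 14 of their first-listed windows held a GC box, against 35.7% of all 32851 windows of that length, 8 held CCAAT (37.4% of all windows) and 2 held TATAAA (13.6%), each on either strand. The windows counted as a whole include further starts of a gene and genes that were not tested, so the sets are unlike. All of these are counts of letters in the B6 reference. The sequence of MSM was not analysed here, and nothing follows from the counts about binding.

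Among enzymes, the lowest value on the scale of residual SDs was that of Antkmt, which encodes a mitochondrial methyltransferase of the adenine nucleotide translocase. Its signal was 8.5066 and 8.5072 in the B6-Chr17MSM males, 8.5190 and 8.5187 in the B6 males, 8.5073 and 8.5058 in the MSM males, and 8.5180, 8.5200 and 8.5221 (lowest, median, highest) in the 54 males of the other strains. Both strains with the MSM chromosome lay below all the others, without overlap. The difference from B6 was -0.0119 ± 0.00075 (SE; adjusted p = 2.57e-12, limma), or -15.8 residual SD units, and that from the other strains -17.5.

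Xdh encodes xanthine dehydrogenase, the enzyme of the last steps from purines to uric acid. Its signals were 9.2004 and 9.1992 in the B6-Chr17MSM males and 9.2078 and 9.2076 in the B6 males, while the other males ranged from 9.2052 to 9.2090. The groups did not overlap, and the difference from B6 was -0.0079 ± 0.00075 (-10.4 SD units, adjusted p = 4.56e-08). Haao, an enzyme of the kynurenine pathway from tryptophan towards NAD, measured 10.8732 and 10.8742 in the B6-Chr17MSM males and 10.8872 and 10.8863 in the B6 males. The other males lay between 10.8833 and 10.8899, all above both B6-Chr17MSM males, and Haao was lower than in B6 (-9.53 SD units, -0.0131 ± 0.0014, adjusted p = 2.7e-07). Decr2, a peroxisomal reductase needed to break down unsaturated fatty acids, was at 9.8122 and 9.8093 in the B6-Chr17MSM males against 9.8219 and 9.8189 in the B6 males. Its difference from B6 was -6.84 SD units (adjusted p = 0.000152), and against the other strains -4.48. Both B6 males lay above the mean of the other strains.

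Man2a1, the Golgi mannosidase that trims N-glycans, measured 9.7270 and 9.7275 in the B6-Chr17MSM males, 9.7434 and 9.7428 in the B6 males and 9.7385 to 9.7460 in the others. It was lower than in B6 (-10.9 SD units, -0.0158 ± 0.0014, adjusted p = 2.15e-08), again with no overlap. Gfer, a sulfhydryl oxidase of the mitochondrial intermembrane space, was lower through its brightest probe set (-7.08 SD units) and is taken up below, since its second probe set went the other way. Pde9a, a phosphodiesterase of cyclic GMP, was lower (-4.87 SD units, adjusted p = 0.0177).

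Of 19 tested lipid and sterol genes of chromosome 17, 0 were called higher and 2 lower than B6 (Xdh and Decr2), and 5 were lower than the other strains. Over the whole chromosome 4.41% and 10% of tested genes were called in these comparisons, in either direction. The 3 not called against B6 were Ppt2, a palmitoyl-protein thioesterase (-4.48 SD units against the other strains), Cyp4f14, a fatty acid hydroxylase (-4.36), and Plin3, a lipid droplet coat protein (-3.44). The median over the 19 genes was -0.72 SD units against B6 and -0.75 against the other strains, beside 0.02 and -0.08 over all tested genes. Of 24 other liver metabolism genes of the chromosome, 1 was lower than B6 (Slc29a1), and against the other strains Slc29a1 and Sod2 were lower while Plg, the plasminogen gene, and Enpp4 were higher, again beside 4.41% and 10% of the chromosome. Other probe sets of Sod2 went the other way, as described further on.

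Among transporters, Slc3a1 had the largest difference from B6 on the deposited scale among the genes tested by their brightest probe set. It encodes the heavy subunit of the transporter for cystine and dibasic amino acids. Its signal was 7.2747 and 7.2736 in the B6-Chr17MSM males, 7.5257 and 7.5476 in the B6 males, 7.3003 and 7.2949 in the MSM males, and 7.4821, 7.5344 and 7.7011 (lowest, median, highest) in the others. The 4 B6-Chr17MSM arrays lay between 7.2649 and 7.2838 and the 4 B6 arrays between 7.5155 and 7.5511. The B6-Chr17MSM and MSM males were below 7.4166, the median of all values used as the filter. The gene was thus tested through the males of the other groups, whose signals lay not far above that value. The difference from B6 was -0.263 ± 0.047 (-5.57 SD units, adjusted p = 0.00322). The call was lost without the second B6-Chr17MSM male or the second B6 male (highest adjusted p = 0.109). Slc29a1, the equilibrative nucleoside transporter, was at 9.6705 and 9.6671 in the B6-Chr17MSM males and 9.6791 and 9.6815 in the B6 males (-4.72 SD units, adjusted p = 0.0257). One of its B6-Chr17MSM males fell inside the range of the other strains, 9.6701 to 9.6822.

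Pigf and Pgap6 both act on glycosylphosphatidylinositol (GPI) anchors, which tie proteins to the cell surface: Pigf takes part in building the anchor and Pgap6 cleaves it. Pigf was higher, at 8.0185 and 8.0222 in the B6-Chr17MSM males against 8.0144 and 8.0147 in the B6 males and at most 8.0179 in the others. The difference from B6 was 0.0058 ± 0.00091 (6.31 SD units, adjusted p = 0.000539), and its call was lost without the second B6-Chr17MSM male (adjusted p = 0.185). Pgap6 was lower than in B6 (-4.99 SD units, adjusted p = 0.0139), with both its called probe sets in that direction. Its difference of -0.000209 was smaller than the 0.000328 shift seen after quantile normalization.

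Several of the remaining called genes act in cell structure and signalling. Fez2, a relative of the axon growth protein Fez1, was at 8.1345 and 8.1352 in the B6-Chr17MSM males, 8.1411 and 8.1402 in the B6 males and 8.1387 to 8.1428 in the others. It was lower (-9.27 SD units, adjusted p = 4.11e-07), without overlap. Its neighbour Crim1, a membrane protein with cysteine-rich repeats that binds bone morphogenetic proteins, was at 7.5706 and 7.5732 in the B6-Chr17MSM males against 7.5865 and 7.5857 in the B6 males and was lower too (-7.16 SD units, adjusted p = 8.4e-05). Rhot2, a GTPase of the outer mitochondrial membrane that links mitochondria to motor proteins, was at -5.99 SD units (adjusted p = 0.00115), and Klc4, a kinesin light chain, at -4.48 (adjusted p = 0.0439). Synj2, a phosphoinositide phosphatase, was higher by 5.19 SD units (adjusted p = 0.00803), and Yju2, a splicing factor, by 6.09 (adjusted p = 0.000971). Cd2ap, an adaptor of the actin cytoskeleton, was higher by 5.74 SD units (adjusted p = 0.0021), at 8.7713 and 8.7721 in the B6-Chr17MSM males against 8.7699 and 8.7696 in the B6 males; the lower of the first pair lay inside the range of the others, which reached 8.7716. The zinc finger gene Zfp955a (-6.43 SD units), the rhomboid-like gene Rhbdl1 (-4.44) and the less known genes Gm19696 (-5.49), 1700001C19Rik (-4.61) and Gm4432 (-4.54) were lower. On the deposited scale Klc4 (-0.000158), Yju2 (0.000237) and Rhbdl1 (-0.000146) differed from B6 by less than the 0.000328 shift seen after quantile normalization.

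**Figure D3:**
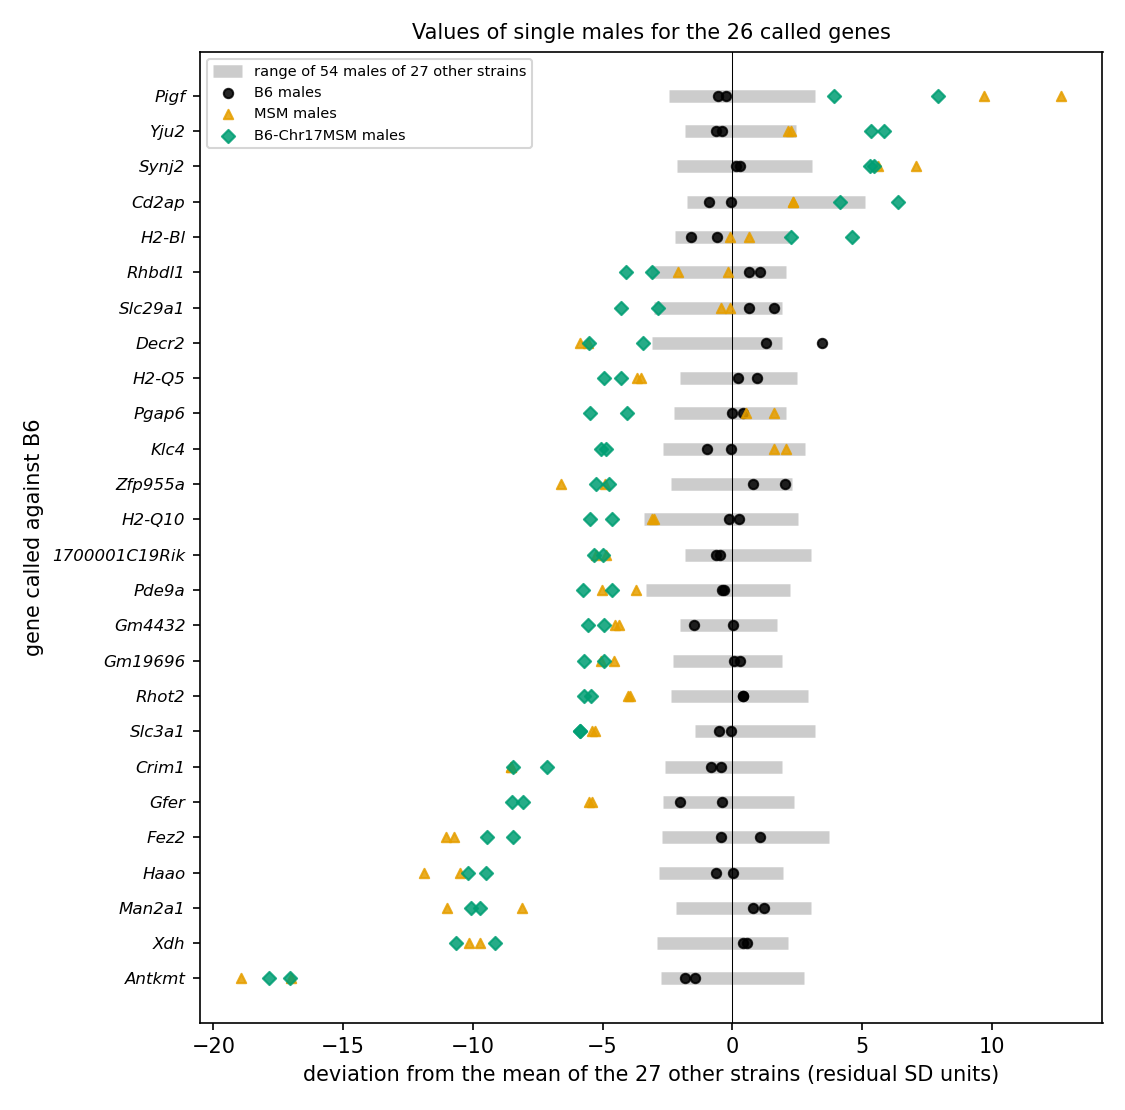
Deviation of each male from the mean of the 27 other strains in residual SD units (x axis) for the 26 genes called against B6 (y axis); green diamonds are the 2 B6-Chr17MSM males, black circles the 2 B6 males, orange triangles the 2 MSM males, and grey bars the range of 54 other males. In 23 of the 26 genes both B6-Chr17MSM males lie outside the grey bar and beyond both B6 males; Cd2ap, Slc29a1 and Rhbdl1 are the exceptions.

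In all 26 genes both B6-Chr17MSM males lay on one side of both B6 males, and so did all 4 arrays against all 4 B6 arrays, beside 36.1% and 7.48% of all tested genes. In 23 genes both males also lay beyond all 54 males of the other strains, and in 17 all 4 arrays lay beyond all arrays of B6 and those strains (0.184% of all tested genes). These counts describe genes that were chosen by the test.

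The 33 genes of chromosome 17 called against the other strains but not against B6 had differences between -4.48 and 4.3 SD units from the other strains, a range that overlaps that of the 26. Cyp4f14 was at 10.8836 and 10.8834 in the B6-Chr17MSM males, 10.8869 and 10.8873 in the B6 males and 10.8832, 10.8876 and 10.8897 (lowest, median, highest) in the others (-4.36 SD units, adjusted p = 0.000455). Its B6-Chr17MSM males were below both B6 males but inside the range of the others, and MSM was at 10.8876 and 10.8875. Lrg1, a secreted acute phase glycoprotein, was lower than in the other strains (-3.17 SD units, adjusted p = 0.021), as was Lmf1 (-3.68, adjusted p = 0.00462), an endoplasmic reticulum protein needed for the maturation of lipases. Tnfaip8l1 (3.71, adjusted p = 0.00437) and Rcan2 (3.78, adjusted p = 0.00346), a regulator of calcineurin, were higher than in the other strains. The adjusted p-values of these 4 genes against B6 lay between 0.372 and 0.641, and they were picked after their values were seen.

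In the MHC, 3 of 96 tested genes were called against B6 (3.12%), beside 23 of 494 outside it on the chromosome (4.66%). These counts take each gene by its brightest single-symbol probe set. They leave out larger differences in dimmer probe sets of H2-K1 and in probe sets shared by several H2 genes, which are given below. H2-Q5, a class Ib gene, was lower, at 7.6932 and 7.6920 in the B6-Chr17MSM males, 7.7014 and 7.7027 in the B6 males and 7.6973 to 7.7055 in the others (-5.19 SD units, adjusted p = 0.00803). H2-Q10, a class Ib gene of the liver whose product is secreted, was at 13.2956 in every male to 4 decimals; it was lower as deposited (-5.13 SD units, adjusted p = 0.0383), was 0 after quantile normalization, and was higher after median centring. H2-Bl, a class I-like gene, was higher by 4.54 SD units (adjusted p = 0.0409), a difference of 0.00011 on the deposited scale.

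Of the 17 genes of the class I list, 6 were tested through a probe set of their own. Among these 6, H2-Bl was called higher and H2-Q10 lower. H2-K1, H2-D1, H2-T3 and H2-M3 were not called against B6 through their brightest probe sets (0.41, 0.11, -1.79 and -0.65 SD units). Of 8 class II genes, 0 were called against B6. H2-Eb1, the beta chain of the E molecule, was at 7.7126 and 7.7054 in the B6-Chr17MSM males, 7.7763 and 7.7917 in the B6 males, 7.7158 and 7.7197 in the MSM males, and 7.7576, 7.8010 and 7.9109 (lowest, median, highest) in the others. Both B6-Chr17MSM males lay below all males of B6 and the other strains, yet only the comparison with the other strains passed (-3.56 SD units, adjusted p = 0.00604; against B6 -2.66, adjusted p = 0.658). H2-Ab1 (0.05 SD units against B6), H2-Aa (0.73), H2-Ea (0.92), H2-Eb2 (0.11), H2-DMa (-0.19), H2-DMb2 (2.89) and H2-Oa (-0.04) did not pass against either reference.

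None of the 5 antigen processing genes passed against either reference: the peptide transporter subunits Tap1 and Tap2 were at 0.05 and 2.71 SD units from B6, the immunoproteasome subunits Psmb8 and Psmb9 at 0.95 and -0.51, and tapasin, Tapbp, at -0.16. Of the complement genes of the chromosome, C2 and Cfb were tested by a probe set of their own. Cfb, factor B of the alternative pathway, was at 12.0492 in both B6-Chr17MSM males, 12.0494 and 12.0495 in the B6 males and 12.0493 to 12.0496 in the others. Both males lay below all 56, but the gene did not pass (-2.84 SD units, adjusted p = 0.57 against B6 and 0.102 against the other strains). C2 was at -1.56 SD units (adjusted p = 0.976).

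The brightest probe set did not stand for every probe set of a gene. When all 915 single-symbol probe sets of the 590 genes were tested in 1 fit with all 22551 probe sets above the filter, 60 were called against both references (6.56%; 20 higher, 40 lower), beside 0.333% of all probe sets. They came from 48 genes, and 20 of these genes were called only through a dimmer probe set. The largest differences of all were among them, and the following 3 genes were picked after their values were seen. H2-K1, the classical class I gene, had 4 tested probe sets. In the brightest, 1451931_x_at, the B6-Chr17MSM males were at 11.11296 and 11.11245 and the B6 males at 11.11235 and 11.11265, with overlap.

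The other 3 probe sets of H2-K1 differed in opposite directions. In 1427746_x_at the B6-Chr17MSM males were at 7.5662 and 7.5243, the B6 males at 9.4206 and 9.3945, the MSM males at 7.4741 and 7.5002, and the others between 9.2821 and 9.6153, a difference from B6 of -1.86 ± 0.055 (-33.7 SD units, adjusted p = 8.11e-22). In 1425336_x_at the difference was -1.06 (-34.2 SD units). In 1450534_x_at, however, the B6-Chr17MSM males were higher, at 8.7499 and 8.7551 against 8.1493 and 8.1732 in the B6 males (0.591 ± 0.022, 26.7 SD units, adjusted p = 2.28e-19). The males with the MSM chromosome, MSM itself included, were thus apart from all others in 3 probe sets and inside their range in the brightest, apart from the MSM males, which lay below it.

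Glo1, the glyoxalase that detoxifies methylglyoxal, also had called probe sets in both directions. In 1436070_at it measured 8.4093 and 8.4103 in the B6-Chr17MSM males against 8.4906 and 8.4887 in the B6 males (-8.37 SD units), while 1424108_at (5.75) and 1451240_a_at (5.56) were higher and the brightest probe set was at 0.20. Ppp2r1a, a scaffold subunit of protein phosphatase 2A, was lower in 3 of its 5 probe sets, with differences of -0.876, -0.901 and -0.624 on the deposited scale (-32, -32.5 and -27.1 SD units). Its brightest probe set was at -3.39 SD units and did not pass against B6 (adjusted p = 0.286). In its probe sets at -0.876 and -0.901 the B6-Chr17MSM males lay between 7.2827 and 7.3768, below the filter value of 7.4166. Those probe sets were thus tested through other males. Gfer was lower in its brightest probe set (-7.08 SD units) and higher in the other (6.1). Sod2, the superoxide dismutase of mitochondria, was higher in its 2 dimmer called probe sets (7.15 and 5.33 SD units from B6), while its 2 brighter ones stood at -3.19 and -2.7 and did not pass against B6. BC004004 was higher in 3 of its 5 tested probe sets (4.3, 5.22 and 7.423). Both were picked after their values were seen. In all, 3 of the 48 genes had called probe sets in both directions, and 8 had 2 or more called probe sets.

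**Figure D4:**
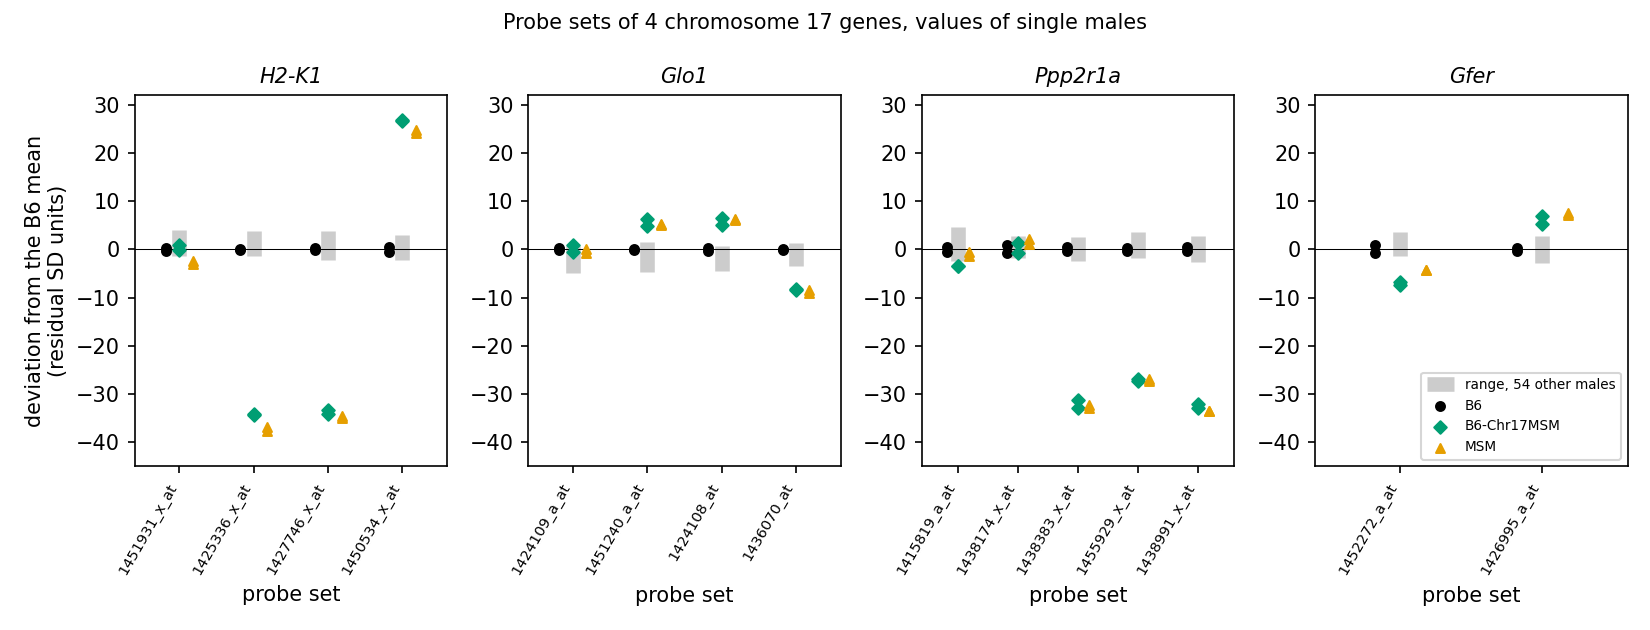
Deviation of each male from the B6 mean in residual SD units (y axis) for every tested probe set (x axis, brightest in B6 first) of H2-K1, Glo1, Ppp2r1a and Gfer; black circles are B6, green diamonds B6-Chr17MSM and orange triangles MSM males (2 each), and grey bars the range of 54 other males. Probe sets of 1 gene differ in size and, in H2-K1, Glo1 and Gfer, in direction, from -34.2 to 26.7 SD units in H2-K1.

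The probes of such an array are short and were designed on reference sequence, so a base that differs between MSM and B6 under a probe and a difference in RNA level cannot be told apart in these values. Some H2 probe sets also match several genes of the family, and probe sets whose names end in x_at or s_at are those the manufacturer marks as shared between sequences. In whole liver, fewer cells of a type and less RNA per cell cannot be told apart either.

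The MSM strain gave a view of the same chromosome in another background. The comparisons of the B6-Chr17MSM strain with the other strains and of MSM with B6 share no male. On chromosome 17, 29 genes were called in both, and all 29 had the same sign; over all 590 genes 55.4% had the same sign, with Pearson's r = 0.64 and Spearman's rho = 0.43 across genes, which are not independent replicates. Elsewhere 7 genes were called in both and 0 had the same sign, and over 11359 genes the share was 46.3% (r = -0.13). Each of the 27 reference strains carries MSM sequence somewhere, and whether this bears on the signs of genes elsewhere was not tested.

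**Figure D5:**
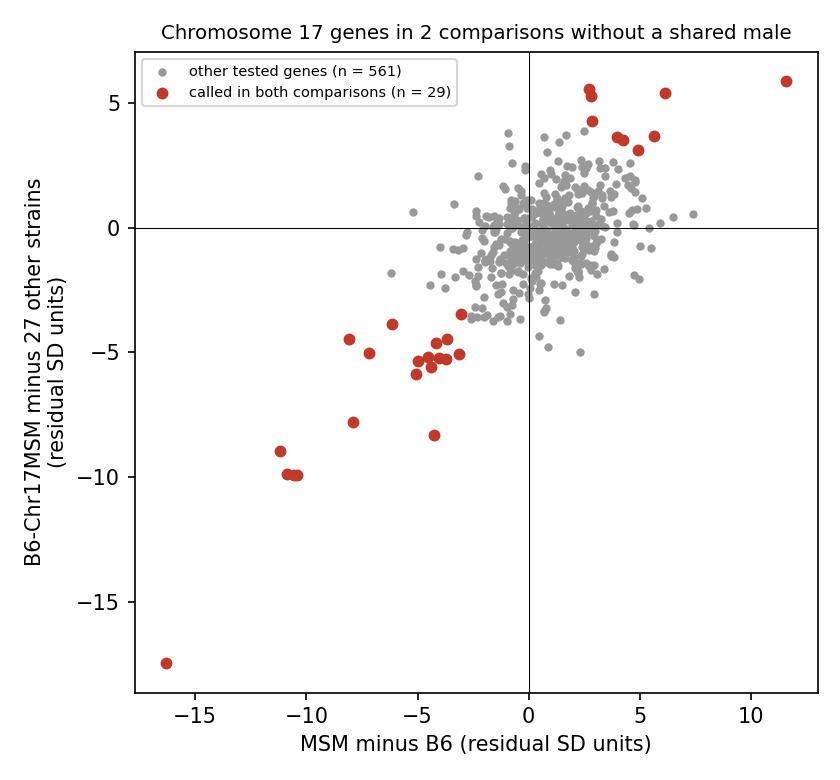
Difference of MSM from B6 (x axis) and of B6-Chr17MSM from the mean of the 27 other strains (y axis), both in residual SD units, for the 590 tested genes of chromosome 17; the 29 red genes were called in both comparisons. All 29 lie at the lower left or the upper right of the zero lines.

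MSM differed from B6 in 123 genes of chromosome 17 (20.8%) and in 2834 elsewhere (24.9%), beside 24.7% of all tested genes. MSM against the B6-Chr17MSM strain gave 104 genes of chromosome 17 (17.6%), where both carry the MSM chromosome, and 3014 elsewhere (26.5%), beside 26.1% of all. On chromosome 17, 84 of the 104 were higher and 20 lower in MSM, beside 1814 higher and 1304 lower over all tested genes. These splits are of the values as deposited and are not given here after rescaling. Of the genes called against B6, Antkmt, Man2a1, Xdh, Haao, Crim1 and Slc3a1 had adjusted p-values from 0.331 to 0.985 between MSM and the B6-Chr17MSM strain.

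Outside chromosome 17, the 18 genes called against the other strains were spread over 12 chromosomes with 1 to 3 each. The largest on the deposited scale was Mug1, a liver-secreted protease inhibitor of chromosome 6, at 10.2247 and 10.1806 in the B6-Chr17MSM males and 10.1875 and 10.2073 in the B6 males, which overlap. It was higher than the other strains (3.55 SD units, adjusted p = 0.00625) but at 0.18 SD units from B6, and the others ranged from 9.3144 to 10.2114, with MSM far below B6 (-29 SD units). Cyp4b1, a fatty acid hydroxylase of chromosome 4, was at 8.8039 and 8.8051 in the B6-Chr17MSM males and 8.8033 and 8.8036 in the B6 males (3.92 SD units from B6, adjusted p = 0.125; 4.33 from the others, adjusted p = 0.000494). Tecr, a reductase of very long chain fatty acid elongation on chromosome 8, was lower than the others (-4.28 SD units, adjusted p = 0.000562) and at -3.57 from B6 (adjusted p = 0.238). Clk3, a kinase of splicing factors, was lower than the others (-3.84 SD units), and both males lay below all males of B6 and the other strains. None of the 18 passed against B6 through its brightest probe set, and these 4 were picked after their values were seen. Another of the 18, Cyb5r3 of chromosome 15, did pass through a dimmer probe set, 1425329_a_at, in the fit of all probe sets. It was at -4.47 SD units from B6 (adjusted p = 0.0297, limma) and -3.52 from the other strains (adjusted p = 0.0054). It was the 1 probe set called against both references among 18514 single-symbol probe sets outside chromosome 17. When each gene's reference left out the strains that carry MSM sequence of its own chromosome, 16 genes elsewhere were called.

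No gene elsewhere in the lists of liver pathways passed against either reference. Among the pathway lists the one farthest from the median of all genes was that of cholesterol synthesis, singled out after its values were seen, with 19 tested genes, 18 of them below B6 and all 19 below the other strains. Its median was -1.98 SD units against B6 and -1.39 against the other strains, beside 0.02 and -0.08 over all tested genes. Its direction held after quantile normalization (14 of 19 below B6, median -0.95) and median centring (17 of 19, median -1.42). Nsdhl, a sterol dehydrogenase, stood at -2.23 and -2.54 SD units from the mean of the other strains in the B6-Chr17MSM males and 1.68 and 0.49 in the B6 males. Fdps, farnesyl diphosphate synthase, stood at -2.04 and -2.31 against 1.42 and 0.56. Both genes were picked after their values were seen. In 13 of the 19 genes both B6-Chr17MSM males lay below both B6 males, as they did in 19% of all tested genes. The lowest adjusted p in limma was 0.291 against B6 and 0.172 against the others, so no gene of the list passed as deposited. After quantile normalization 3 passed against each reference, where 9.61% and 15.1% of all tested genes passed in either direction. In that setting 10355 of all 11949 tested genes lay above B6 and 1354 below, unlike the list. Those shares are therefore no matched background, and nothing is concluded from the count of 3. The other strains reached lower values, such as -3.93 for Nsdhl.

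For bile acid genes, 0 of 19 passed and the median against B6 was -0.97 SD units (-0.44 against the other strains); for fatty acid and triglyceride synthesis, 0 of 18 passed (-0.83 and -0.51). Of 17 cytosolic ribosome genes, 0 passed against B6, and Rpl10a and Rps18, both on chromosome 17, were lower than the other strains; the median of the list turned from -0.53 against B6 as deposited to 0.91 after median centring. Of 35 interferon response genes and of 13 class I pathway genes outside chromosome 17, 0 passed, with medians of 0.34 and 0.53 against B6 and of the opposite sign, -0.07 and -0.19, against the other strains. Of 17 tested Kupffer cell and macrophage markers, 3 B cell, 5 T and NK cell, 4 dendritic cell, 4 neutrophil, 5 erythroid, 13 stellate cell and fibroblast and 12 endothelial markers, 0 passed against either reference, with list medians between 0.01 and 1.74 SD units against B6. Against the other strains the medians lay between -0.58 (Kupffer cells and macrophages, 1 of 17 above) and 1.24 (B cells); the Kupffer cell, neutrophil and stellate cell lists were above 0 against B6 and below 0 against the other strains.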

How the data were processed

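Liver RNA of 60 males of 30 strains was measured on 120 arrays, 2 for each male. The deposited table of the authors holds log2 signals for 45037 probe sets, from 6.34 to 14.82; how they were normalized and summarised is not given in the sources used here. The median residual SD of a gene was 5.95e-05 log2 units (10th to 90th percentile 1.02e-05 to 0.000806), far below what unshrunk arrays show, and the factor is unknown. The number of males, 2 a strain, limits the precision.

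The 2 arrays of a male were averaged. Probe sets with 1 gene symbol (34945) gave 18193 genes, each represented by the probe set of the highest mean; 11949 genes above the median value of 7.4166 in at least 2 of 60 males were tested. One limma fit (version 3.58.1, lmFit and eBayes) of the 30 strains (residual degrees of freedom 30, prior degrees of freedom 0.592) compared the B6-Chr17MSM strain with B6 and with the mean of 27 strains, with Benjamini-Hochberg adjustment over all tested genes. It was tested on simulated data. The residual SD unit is the difference over the residual SD of that fit. Gene chromosomes, order and promoters came from the RefSeq tables given (GRCm38.p6). The rule for named genes took, on chromosome 17, the 12 largest positive and 12 largest negative differences from B6 on the deposited scale among genes called against both references with the same sign and with both males beyond both B6 males; elsewhere, the 8 largest of each sign by the same conditions, of which there were 0; every tested gene of the MHC class I, class II, antigen processing and complement lists; and up to 4 called members of each other list. The rest of the 26 called genes are named so that every one is accounted for. Genes outside this rule and the 26 were picked after their values were seen, also where this is not marked. The members, gene lists and tests were chosen with earlier results of these data known. Quantile normalization, median centring, other probe set rules, filters, variance models, array numbers and left-out males were tried as alternatives.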

Additional observations from a re-analysis of the deposited data

Results flagged for a closer look

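For 8 of the 26 genes called against B6 (30.8%, beside 26.1% of all tested genes and 17.6% of chromosome 17), MSM and the B6-Chr17MSM strain, which both carry the MSM chromosome 17, differed by limma. Pigf was higher in MSM than in the B6-Chr17MSM males by 0.00485 on the deposited log2 scale (adjusted p = 0.000175), with MSM 11.6 residual SD units above B6 and the B6-Chr17MSM strain 6.31 above it. Klc4 was higher in MSM by 0.000239 (adjusted p = 5.12e-06) and Pgap6 by 0.000245 (adjusted p = 4.68e-05); both were lower than B6 in the B6-Chr17MSM strain, while MSM stood 2.32 and 0.85 SD units above B6. Slc29a1 was higher in MSM than in the B6-Chr17MSM strain by 0.0081 (adjusted p = 0.013) and Gfer by 0.000395 (adjusted p = 0.035). Cd2ap differed by -0.00101 (adjusted p = 0.0283), Yju2 by -0.000132 (adjusted p = 0.0119) and H2-Bl by -7.69e-05 (adjusted p = 0.0187), each with the higher signal in the B6-Chr17MSM strain. The differences of Klc4, Pgap6, Yju2 and H2-Bl were smaller than 0.000328, the shift of the median gene against B6 after quantile normalization. They therefore cannot be told apart from a shift of whole arrays, and values of this comparison after rescaling are not given here.

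Probe sets that name several genes were left out of the gene counts, and 8 of the 561 tested were called against both references (1.43%, beside 0.333% of all 22551 probe sets). The largest difference from B6 was -1.52 log2 units in a probe set shared by H2-K1 and H2-D1. A probe set of H2-Q9 and H2-Q7 differed by -0.293, one of H2-T9, H2-T22 and H2-T10 by -0.0473, and one of H2-Q6 and H2-Q8 by -0.0329. For H2-Q9 and H2-Q7 the B6-Chr17MSM males were at 7.1288 and 7.1177 and the B6 males at 7.4180 and 7.4148. For H2-Q6 and H2-Q8 they were at 7.3715 and 7.3695 against 7.4027 and 7.4042. In both probe sets the B6-Chr17MSM males were below the filter value of 7.4166 and the B6 males near it. Both were thus tested through other males. The 2 probe sets of Rnaset2a and Rnaset2b, a pair of ribonuclease genes, differed by -0.0157 and -0.0224. A probe set of the zinc finger genes Zfp960 and Zfp97 differed by -0.00624, and one of Gm3448, Gm3417 and Tcte3 was higher by 0.00044. Which gene of each group carried the difference was not tested.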

How the results depend on the processing

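Counts are given as higher and lower on chromosome 17 and called elsewhere, against B6, against the other strains, and against both. Quantile normalization gave 73, 13 and 1062 against B6, 97, 20 and 1693 against the other strains, and 58, 13 and 825 against both. Median centring gave 8, 15 and 1, then 14, 25 and 10, then 7, 15 and 0. Testing all single-symbol probe sets, adjusted over 19429 rather than the 22551 with several or no symbols included, gave 19, 40 and 1, then 37, 72 and 38, then 19, 40 and 1. The probe set with the largest SD gave 7, 31 and 1, then 17, 53 and 20, then 7, 31 and 1. Array 1 alone gave 0, 7 and 0, then 8, 18 and 1, then 0, 7 and 0; the other array alone gave 9, 18 and 14, then 30, 69 and 512, then 6, 18 and 8. All 120 arrays with the male as a random block gave 15, 26 and 15, then 27, 49 and 56, then 14, 25 and 5. A fit of the compared strains alone gave 0, 0 and 0 against B6, with 2 residual degrees of freedom, 14, 41 and 13 against the other strains, and 0, 0 and 0 against both. The causes were not tested. Without 1 male in turn, the ranges were 1 to 5, 10 to 15 and 0 to 6 against B6, 4 to 16, 19 to 44 and 3 to 13 against the other strains, and 1 to 5, 9 to 14 and 0 to 2 against both. With no filter the counts against B6 were 6, 18 and 0; a stricter filter, a trended or robust prior, B6 in the reference, and a reference without strains that carry MSM sequence of the gene's own chromosome, chosen after seeing the data, stayed within 1.5 times the counts reported.

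Quantile normalization turned Gfer to 0.000774, Rhbdl1 to 0.000156 and Klc4 to 0.000589 against B6, and against the other strains H2-M3 to 0.000265, Gfer to 0.00038, Rhbdl1 to 0.000103, Pgap6 to 0.000201 and Klc4 to 7.41e-05. Median centring turned H2-Q10 to 2.38e-05 against B6 and 1.22e-05 against the other strains. Taking the probe set with the largest SD turned H2-K1 against B6 to -1.86, since that rule picks another of its probe sets. No paired analysis was possible because the replicate numbers are animal numbers that the strains do not share.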
